A study of Mus musculus with 6 samples.

Results

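The transcripts of the mitochondrial genome were examined in haematopoietic stem cells of mice that did or did not make a truncated epidermal growth factor receptor. The members are the 37 genes of mouse mitochondrial DNA, 13 for proteins, 2 for ribosomal RNA (rRNA) and 22 for transfer RNA (tRNA), out of 50763 gene symbols in the deposited table. They were to be found as symbols that start with mt-. Only 2 rows of the table are written that way, mt-Rnr1 and mt-Rnr2. The other members carry RefSeq symbols (ND1 for mt-Nd1, COX1 for mt-Co1, TrnF for mt-Tf) and were found by matching each GENCODE symbol that starts with mt- to the RefSeq gene at the same place on the mitochondrial genome. All 37 were in the table.

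RNA came from CD34- KSL cells of bone marrow, a sorted fraction rich in long-term stem cells that lacks lineage markers and CD34 and bears Sca-1 and c-Kit on its surface. All mice carried Tal1-tTA, a doxycycline-repressed activator driven by the blood stem cell gene Tal1, and its target TRE-EGFR-tr. Mice without doxycycline made a receptor that lacks the cytoplasmic kinase domain in addition to the wild-type receptor (EGFR-DN, 3 libraries). Mice given doxycycline at 0.2 g/L in drinking water made the wild-type receptor only (EGFR-WT, 3 libraries). Neither the ages of the mice nor the number of animals behind a library is stated. A p-value here therefore sets the difference between groups only against the spread of libraries within groups, and that spread may be technical. Doxycycline belongs to the tetracyclines, which are known to slow translation on mitochondrial ribosomes, and it was given to the EGFR-WT group only. Effects of the drug and of the truncated receptor cannot be told apart.

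Mitochondrial DNA is a small circle present in many copies per cell. Both strands are copied into long precursors, which are cut at the tRNAs that lie between most of the other genes. The protein genes encode subunits of respiratory complexes I (ND1 to ND6 and ND4L), III (CYTB) and IV (COX1 to COX3) and of ATP synthase (ATP6 and ATP8), and the 2 rRNAs form the mitochondrial ribosome. Most mitochondrial messenger RNAs carry short poly(A) tails, whereas mature tRNAs end in CCA. Stem cells of the marrow are known to keep many mitochondria at low respiratory activity.

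Total counts ranged from 24073204 to 36032504 per library. Counts of Egfr, the gene targeted, were 4022, 4758 and 991 in EGFR-DN replicates 1 to 3 and 6 in every EGFR-WT replicate. The sorting marker Kit lay between 736 and 1960 CPM (counts per 1000000, scaled between libraries) and Ly6a, the gene of Sca-1, between 46.7 and 78.4 CPM. Cd34 RNA was present at 318 to 569 CPM. The 3 genes that mark cells outside the sorted fraction (Cd34, Flt3 and Cd48) summed to 584 to 916 CPM in EGFR-DN and 466 to 597 CPM in EGFR-WT. Of these Flt3, a marker of multipotent progenitors, was at 224, 174 and 169 CPM in EGFR-DN and 99.8, 99.1 and 123 CPM in EGFR-WT. The stem cell marker Procr was at 22.9, 32.4 and 15.1 against 74.9, 43.0 and 50.4 CPM. The groups did not overlap for either gene, both picked after their values were seen. Of the other marker lists, 5 myeloid genes summed to 96.7 to 153 CPM in EGFR-DN and 39.9 to 57.8 CPM in EGFR-WT, and 4 B cell genes to 8.44 to 22 against 2.54 to 10.2 CPM. The 5 T and NK cell genes summed to 154 to 228 against 99.8 to 147 CPM, nearly all of it Nkg7 (150 to 226 against 98.9 to 145 CPM). The 4 genes of stroma and endothelium summed to 75 to 151 against 50.3 to 65.3 CPM, nearly all of it Pecam1 (69.5 to 143 against 48.4 to 56.8 CPM). The groups overlapped for the B cell sum and for the sum of Cd34, Flt3 and Cd48. They also overlapped for 4 erythroid genes (28.2 to 61.9 against 19.1 to 33.8 CPM) and 3 megakaryocyte genes (375 to 633 against 372 to 742 CPM). The T cell gene Cd3e and the neutrophil gene Ly6g were at or near 0, at no more than 0.254 and 0.0583 CPM. Elane, of the same myeloid list as Ly6g, was at 18.2, 35.4 and 95.2 against 14.1, 21.2 and 11.2 CPM. EGFR-DN replicate 3 stood apart: 6 nuclear genes with rRNA-like sequence took 22.4% of its counts, against 3.89% to 4.90% in the other 5 libraries. The log2 fold changes and tested ratios of the genes named below are therefore given with and without it. The 6 rRNA-like genes include Lars2, which is also counted among the mitochondrial tRNA ligases below. The part of other cell types and of rRNA carry-over in the results was not tested. In such bulk samples, fewer cells of a type and less RNA per cell cannot be told apart.

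Sequences are shown first where they bear on how reads can be counted. They are from GENCODE M21 transcripts (build GRCm38), found by symbol. ATP8 and ATP6, neighbouring ATP synthase genes read from 1 messenger, share 43 bases. ND4L and ND4, neighbouring complex I genes, share 7. The last 60 bases of the first gene and the first 60 of the second are given with the shared bases in capitals.
ATP8: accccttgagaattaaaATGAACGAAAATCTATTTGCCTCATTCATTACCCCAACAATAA
ATP6: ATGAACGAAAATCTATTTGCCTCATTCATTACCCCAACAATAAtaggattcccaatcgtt
ND4L: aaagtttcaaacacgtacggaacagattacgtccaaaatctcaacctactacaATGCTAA
ND4: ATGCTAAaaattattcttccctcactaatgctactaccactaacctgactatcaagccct
A 75-base read over the capitals overlaps both genes and reaches past the shared bases. How such reads were divided is not known, so the split of counts within each pair is uncertain.

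The ends of 3 protein genes show where the poly(A) tail is part of the reading frame. COX3, ND4 and CYTB run 1 base past a whole codon and end in a lone T, which is completed to a stop codon when A residues are added. COX1 and ND5 end in a full stop codon. The last 30 bases are given, with the stop codon or the lone base in capitals.
COX3: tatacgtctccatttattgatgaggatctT
ND4: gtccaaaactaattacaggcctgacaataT
CYTB: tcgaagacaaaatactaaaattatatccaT
COX1: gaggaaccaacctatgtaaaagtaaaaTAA
ND5: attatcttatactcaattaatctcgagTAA
These 5 are shown because their levels in EGFR-DN replicate 3, given below, went in opposite directions: COX3 was low there and the other 4 were high.

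Of the 22 tRNA genes, 4 are shown because the counts turn on them: TrnP and TrnQ had the most counts, TrnF lies beside mt-Rnr1, and TrnH had the fewest. Capitals mark the anticodon, found as those letters after a T and before a purine in the middle of the gene.
TrnP: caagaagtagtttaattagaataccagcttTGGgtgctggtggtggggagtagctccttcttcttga
TrnQ: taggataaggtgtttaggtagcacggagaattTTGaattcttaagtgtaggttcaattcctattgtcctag
TrnF: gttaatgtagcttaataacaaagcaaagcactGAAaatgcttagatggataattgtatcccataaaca
TrnH: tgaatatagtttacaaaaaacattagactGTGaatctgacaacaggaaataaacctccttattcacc
TrnP is 67, TrnQ 71, TrnF 68 and TrnH 67 bases long, each shorter than the 75-base reads, so a read over one of them can reach into its neighbours.

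Mitochondrial transcripts took 4.69% to 6.10% of all counts. The 13 protein genes took 3.97%, 3.86% and 3.10% in EGFR-DN replicates 1 to 3 and 4.42%, 3.94% and 4.28% in EGFR-WT replicates 1 to 3. The group means were 3.64% ± 0.473 and 4.21% ± 0.246 (SD, n = 3 each), and the groups overlapped. The log2 ratio of these means was −0.21, and −0.11 without replicate 3. The 2 rRNAs took 0.789%, 0.822% and 2.99% against 1.29%, 0.755% and 0.857%. Replicate 3 was far above the rest, while EGFR-DN replicates 1 and 2 lay within the EGFR-WT range, and the log2 ratio of means was 0.67 with it and −0.26 without it. The tRNA genes together took 0.00823%, 0.00854% and 0.00619% against 0.00687%, 0.00802% and 0.00703%, and the groups overlapped (log2 ratio of means 0.07, and 0.20 without replicate 3). These shares are of totals that hold the nuclear rRNA-like counts, 22.4% of the total in EGFR-DN replicate 3. With mitochondrial and rRNA-like genes left out of the totals, the log2 ratios of means were −0.12 (protein), 0.89 (rRNA) and 0.16 (tRNA). All the class sums are given without a test, since the members were chosen with earlier results of these data known.

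**Figure D1:**
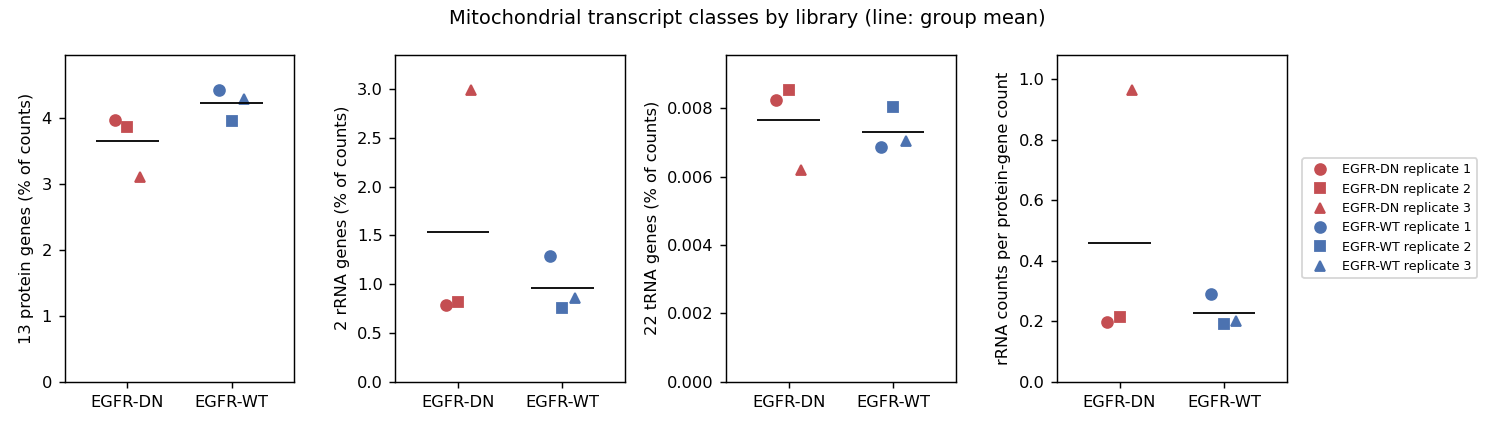
Share of all counts (percent) taken by the protein, rRNA and tRNA genes of the mitochondrial genome, and rRNA counts per protein-gene count, for each library, with a line at the group mean. EGFR-DN replicate 3 has 2.99% rRNA and 0.966 rRNA counts per protein count, above every other library.

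Per base of gene, the protein transcripts kept nearly the same order in the 5 libraries other than EGFR-DN replicate 3. Levels per length are given as a percentage of the sum over the 13 protein genes in the same library. COX3, a core subunit of complex IV, held 20.1% to 22.4% in those 5 libraries. CYTB, the only complex III subunit of this genome, held 6.71% to 7.77%, and COX2, the complex IV subunit that takes electrons from cytochrome c, 6.38% to 6.94%. The catalytic subunit gene COX1 ranged from 4.33% in EGFR-DN replicate 1 to 8.20% in EGFR-DN replicate 2, with EGFR-WT in between at 4.55% to 5.94%. Of the complex I genes, ND1 was at 3.02% to 4.35%, ND5 at 1.02% to 1.20% and ND6 at 0.852% to 1.15%, last in each of these 5 libraries. ND6 is the only protein gene on the opposite strand.

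ATP8, a small ATP synthase subunit, headed the order at 41.3% to 42.7% per length, but this figure rests on how reads were divided. The table also has a row named Atp6-ps, by its name a pseudogene of ATP6, with 129160, 123243 and 49972 counts in EGFR-DN replicates 1 to 3 and 127964, 138600 and 109060 in EGFR-WT. ATP6 itself had 57844, 52309 and 41670 against 55267, 58056 and 45515 counts. In GENCODE M21 the nuclear genome holds a copy called Gm10925, which RefSeq lists with mt-Atp6 as a synonym. Its 678 bases are identical to ATP6 at all 678. Whether the row Atp6-ps is that copy is not settled by the tables used here. Reads from identical sequence cannot be assigned by sequence, so levels of ATP6 and ATP8 are uncertain.

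When ATP8, ATP6 and Atp6-ps were summed over the 842 bases of the joint ATP8/ATP6 unit, they came to 0.911 and 0.997 times COX3 per base in EGFR-DN replicates 1 and 2, and to 0.915, 0.938 and 0.964 times in EGFR-WT. In EGFR-DN replicate 3 the sum was 2.37 times COX3. Before the sum, ATP8 had 748 to 968 counts per base and ATP6 66.8 to 85.3 in the 5 libraries. The share of ATP6 in ATP6 plus Atp6-ps was 29.4% to 30.9% in those libraries and 45.5% in EGFR-DN replicate 3. A second copy, Gm10222, has 294 bases identical to ND4L but held only 165 to 291 counts, beside 8290 to 11142 for ND4L. GENCODE lists 5 more copies, like COX3, COX2, ND4, ND3 and COX1, at 99.7% to 100% identity, and these have no row in the table.

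By complex, the shares of protein-gene counts were close together in 5 libraries and differed in EGFR-DN replicate 3. Complex I took 19.3%, 17.9% and 32.2% in EGFR-DN replicates 1 to 3 and 16.5%, 18.1% and 18.5% in EGFR-WT. Complex III took 12.9%, 12.6% and 20.5% against 14.8%, 14.3% and 14.9%. Both were highest in replicate 3. Complex IV took 48.8%, 52.2% and 33.5% against 50.02%, 49.7% and 47.7%, and ATP synthase 19.0%, 17.3% and 13.9% against 18.7%, 18.0% and 19.0%. Both were lowest in replicate 3, and the groups overlapped for all 4. The Atp6-ps row is not among the protein-gene counts, so all 4 shares carry the uncertainty of ATP6 and ATP8 given above.

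The comparison of EGFR-DN with EGFR-WT asks which transcripts differ when the truncated receptor is made. None of the mitochondrial genes passed the threshold. Of the 37 members, 29 had enough counts to be tested, all 13 protein genes, both rRNAs and 14 tRNA genes, and 0 had an edgeR adjusted p under 0.05, where 0.00518% of all 19313 tested genes did (1 gene, Egfr). At an unadjusted p under 0.05 there were also 0 members, against 6.69% of all genes, and the smallest adjusted p of a member was 0.69. DESeq2 called 0 members too, against 0.775% of the 17410 genes to which it gave an adjusted p. It gave none for TrnD and TrnK. Of the 29 members, 18 had a log2 fold change (EGFR-DN minus EGFR-WT) above 0 and the median was 0.14, beside 0.01 over all genes tested. With no member called, these counts describe the estimates only.

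Without EGFR-DN replicate 3, 7 of 31 members tested lay above 0 and 24 below, with a median of −0.14 (−0.005 over all genes). Of the 29 members tested in both fits, 14 turned sign. edgeR again called 0 members, against 0.286% of all genes, and 5 of 31 members (ND2, ND3, ND4L, CYTB and TrnP) had an unadjusted p under 0.05, against 13.6% of all genes. DESeq2 without this library, run after the data had been seen, called 2 of 31 members, CYTB lower and TrnP higher. Their edgeR adjusted p values in the same 5 libraries were 0.191 and 0.121. Of the 16046 genes to which DESeq2 gave an adjusted p, it called 5.51% (2.39% lower and 3.12% higher). Members without an adjusted p in that fit included TrnV, TrnM, TrnD, TrnK and TrnR, so the 2 shares have unlike bases.

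**Figure D2:**
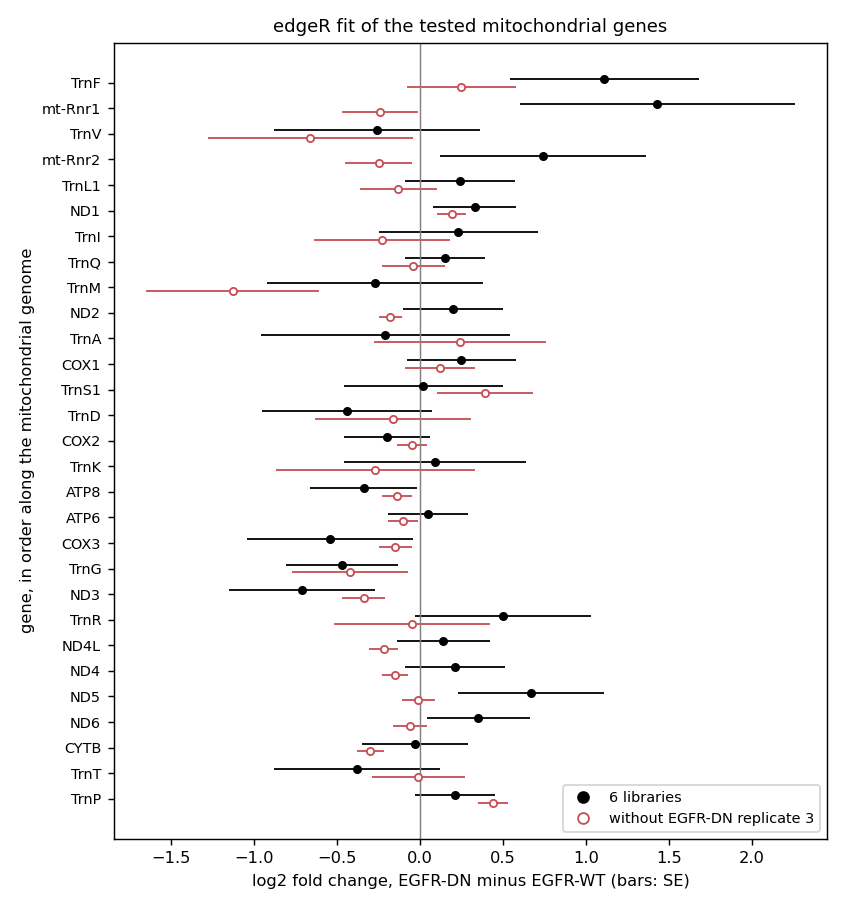
Log2 fold change of each tested mitochondrial gene (EGFR-DN minus EGFR-WT, points) with its standard error (bars), from edgeR on 6 libraries (black) and without EGFR-DN replicate 3 (open red). The mt-Rnr1 estimate is 1.43 with all libraries and −0.24 without replicate 3.

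Neither rRNA was called. The 12S rRNA of the small ribosomal subunit, mt-Rnr1, was at 1637, 1461 and 11729 CPM in EGFR-DN replicates 1 to 3 and at 2490, 1349 and 1649 CPM in EGFR-WT replicates 1 to 3. Replicate 3 was far above the rest, and the groups overlapped. The means were 4943 ± 5878 and 1829 ± 592 CPM (SD, n = 3), and the log2 fold change was 1.43 (edgeR adjusted p = 0.69, SE 0.83). The 16S rRNA of the large subunit, mt-Rnr2, was at 5973, 6508 and 24802 CPM against 9765, 5904 and 6609 CPM (log2 fold change 0.74, SE 0.62, edgeR adjusted p = 0.709). Without EGFR-DN replicate 3, mt-Rnr1 was at −0.24 (SE 0.23) and mt-Rnr2 at −0.25 (SE 0.20). EGFR-WT replicate 1 was the next highest library for both.

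The ratio of the 2 rRNAs to each other does not depend on scaling between libraries. Counts of mt-Rnr2 per count of mt-Rnr1 were 3.65, 4.45 and 2.11 in EGFR-DN replicates 1 to 3 and 3.92, 4.38 and 4.01 in EGFR-WT. Apart from replicate 3, the libraries lay close together. The mean log2 difference of −0.33 was within the spread between libraries (exact two-sided permutation p = 0.5, adjusted p = 0.75 over 3 ratios; 3 against 3 libraries cannot give less than 0.1). It was −0.02 without EGFR-DN replicate 3 and −0.56 without EGFR-DN replicate 2. In all, rRNA counts per protein-gene count were 0.199, 0.213 and 0.966 against 0.291, 0.192 and 0.200. In replicate 3 the 6 nuclear rRNA-like genes and the mitochondrial rRNAs were thus high together, and the part of the one in the other was not tested.

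No complex I gene was called. ND5, a proton-pumping membrane subunit, was at 1403, 1287 and 3773 CPM in EGFR-DN and 1301, 1246 and 1508 CPM in EGFR-WT (log2 fold change 0.67, SE 0.44, edgeR adjusted p = 0.69). Replicate 3 was the only library apart from the rest, and without it the value was −0.01 (SE 0.10). ND3, a small membrane subunit, was at 575, 423 and 153 CPM in EGFR-DN and 596, 627 and 664 CPM in EGFR-WT. All 3 EGFR-DN libraries lay below all EGFR-WT libraries, the only one of 29 tested members whose groups did not overlap, against 17.9% of all genes (8.72% with EGFR-DN below). Its log2 fold change was −0.71 (edgeR adjusted p = 0.69, SE 0.44) and moved to −0.34 (edgeR adjusted p = 0.315, SE 0.13) without replicate 3.

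The other complex I genes overlapped between groups. ND1, a membrane subunit near the ubiquinone site, was at 2682, 2339 and 3242 CPM against 2025, 2187 and 2372 CPM, with only EGFR-DN replicate 2 inside the EGFR-WT range (log2 fold change 0.33, SE 0.25, edgeR adjusted p = 0.70, and 0.19 without replicate 3). ND2 (0.20, SE 0.30), ND4 (0.21, SE 0.30) and ND4L (0.14, SE 0.28), 3 more membrane subunits, were above 0 with all libraries and at −0.18, −0.15 and −0.22 without replicate 3. ND6 was at 285, 353 and 631 CPM against 338, 324 and 331 CPM (log2 fold change 0.35, SE 0.31, and −0.06 without replicate 3). ND6 counts per count of its opposite-strand neighbour ND5 were 0.203, 0.274 and 0.167 in EGFR-DN and 0.260, 0.260 and 0.219 in EGFR-WT (mean log2 difference −0.22, exact two-sided permutation p = 0.4, adjusted p = 0.75). This difference was −0.06 without EGFR-DN replicate 3 and −0.41 without EGFR-DN replicate 2. Since the library kit does not mark strand, reads from the 2 strands at one place cannot be told apart.

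None of the complex IV genes or CYTB was called. COX3 was at 11291, 9296 and 3054 CPM in EGFR-DN and 12140, 10424 and 11698 CPM in EGFR-WT. EGFR-DN replicate 3 was far below the rest, and EGFR-DN replicate 2 also lay below every EGFR-WT library. The means were 7880 ± 4297 and 11421 ± 891 CPM (SD, n = 3), and the log2 fold change was −0.54 (edgeR adjusted p = 0.723, SE 0.50), or −0.15 (SE 0.10) without replicate 3. COX2 was at 3060, 2755 and 2045 CPM against 3240, 2700 and 3080 CPM (log2 fold change −0.20, SE 0.26, and −0.05 without replicate 3).

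COX1 was at 4311, 7480 and 7558 CPM against 5696, 5676 and 4853 CPM, with EGFR-DN libraries on both sides of the EGFR-WT range (log2 fold change 0.25, SE 0.33, and 0.12 without replicate 3). COX1 counts per count of ND1, the first protein gene of complex I on the same strand, were 1.61, 3.20 and 2.33 against 2.81, 2.60 and 2.05, and the groups overlapped (mean log2 difference −0.11, exact two-sided permutation p = 0.8, adjusted p = 0.8). It was −0.12 without replicate 3, 0.15 without EGFR-DN replicate 1 and −0.35 without EGFR-DN replicate 2. CYTB was at 4947, 4729 and 7742 CPM against 6241, 5396 and 6120 CPM. EGFR-DN replicates 1 and 2 lay below every EGFR-WT library and replicate 3 above them all, so the log2 fold change was −0.03 (SE 0.32) with all libraries and −0.30 (SE 0.08) without replicate 3.

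The ATP synthase pair, uncertain for the reasons above, was at 5597, 4976 and 3136 CPM against 6106, 5263 and 6017 CPM for ATP8 and at 1687, 1484 and 2113 against 1756, 1547 and 1795 CPM for ATP6. The groups overlapped for both. Their log2 fold changes were −0.34 (SE 0.32) and 0.05 (SE 0.24), and −0.14 and −0.10 without replicate 3.

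**Figure D3:**
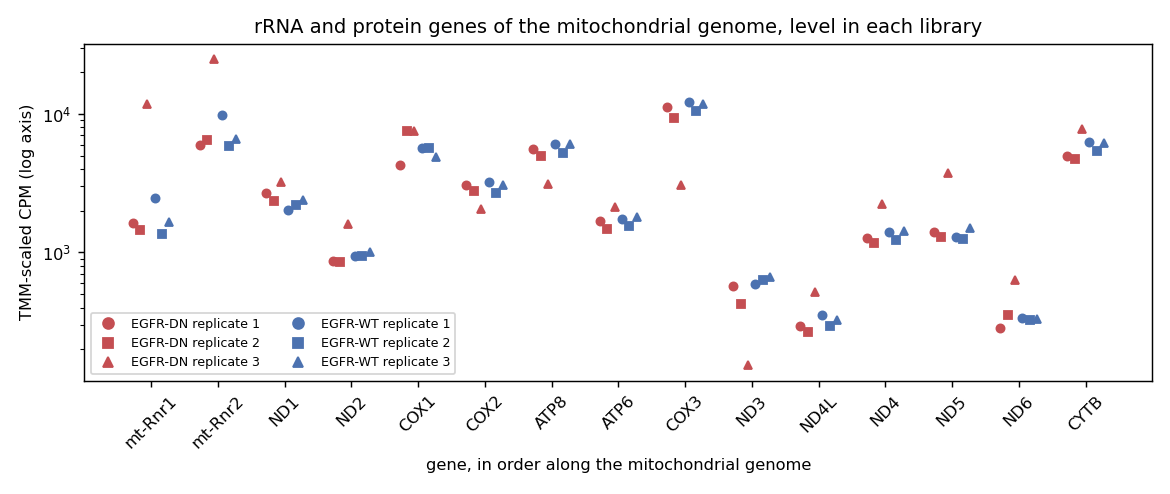
Level of each rRNA and protein gene in each library (TMM-scaled CPM, log axis), in order along the genome. In EGFR-DN replicate 3 (red triangles) mt-Rnr1, mt-Rnr2 and ND5 lie above the other libraries and COX3 and ND3 below them.

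In EGFR-DN replicate 3 the messengers therefore went both ways. Of 13 protein genes, 9 were above the range of the other 5 libraries and 4 below it (COX2, ATP8, COX3 and ND3). Over all tested members 27 of 29 lay outside that range, 18 above it and 9 below. Of all genes 76.4% lay outside, 38.2% above and 38.3% below, so being outside is common in this library. Of the members 12 of 29 differed more than 2-fold from the mean of the other 5 libraries, against 30.4% of all genes. Among the protein genes, the lowest log2 ratios to the mean of the other 5 libraries were −1.92 for ND3 and −1.84 for COX3, and the highest was 1.48 for ND5.

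The direction followed the length of the messenger. Taking the pairs ATP8/ATP6 and ND4L/ND4 as single messengers, all 4 units under 900 bases on the main strand (ND3 at 348, COX2 at 684, COX3 at 784 and ATP8/ATP6 at 842 bases) were lower in replicate 3, at −1.92, −0.54, −1.84 and −0.46. All 6 longer units were higher, from 0.43 for COX1 (1545 bases) to 1.48 for ND5 (1824 bases). The length of 900 bases was chosen after the values were seen. Across the 10 units Spearman's rho of length and change was 0.87, a description of 1 library in which all units share depth and preparation. ND6, at 519 bases on the opposite strand, was at 0.95 and is the exception to this order. With the Atp6-ps row added to it, the ATP8/ATP6 unit was at −0.51.

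The same contrast can be written as a ratio within each library. The short and long sets, and the pair COX3 and CYTB, were picked after the values were seen, so these ratios only restate it. Counts of the 4 short units per count of the 6 long units were 1.41, 1.04 and 0.393 in EGFR-DN replicates 1 to 3 and 1.33, 1.21 and 1.32 in EGFR-WT. COX3 counts per CYTB count were 2.28, 1.97 and 0.394 against 1.95, 1.93 and 1.91. Nuclear genes showed an order in the same direction in this library, with a lower Spearman's rho of 0.49. Their median was below 0 from 1000 to 2000 bases, where the main-strand mitochondrial units were above 0. Among 10025 nuclear genes with at least 10 CPM and a transcript length in GENCODE, the median log2 change of replicate 3 was −0.86 for the 914 genes whose longest transcript is under 1000 bases, −0.54 from 1000 to 2000 bases, −0.20 from 2000 to 4000 bases and 0.37 above 4000 bases. Between EGFR-DN replicates 1 and 2 and EGFR-WT, the 10 mitochondrial units ranged only from −0.33 to 0.19, with a rho of 0.26 with length. The part of transcript length in this was not tested.

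**Figure D4:**
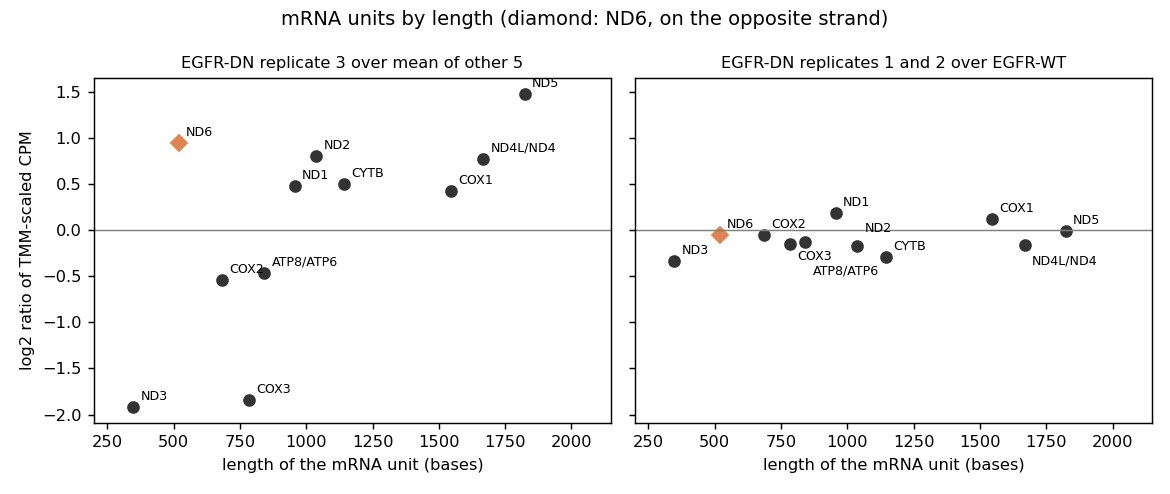
Log2 ratio of TMM-scaled CPM for each mitochondrial messenger unit against its length in bases, for EGFR-DN replicate 3 over the mean of the other 5 libraries (left) and for EGFR-DN replicates 1 and 2 over EGFR-WT (right). On the left ND3 and COX3 lie at −1.92 and −1.84 and ND5 at 1.48, and on the right the main-strand units lie between −0.33 and 0.19.

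Reads over tRNA genes were few. All 22 together had 1489 to 2919 counts per library, or 1.55 to 2.21 per 1000 protein-gene counts. This ratio was 2.07, 2.21 and 2.00 in EGFR-DN and 1.55, 2.03 and 1.64 in EGFR-WT, so the groups overlapped. TrnP (proline) had 1502, 1356 and 454 counts in EGFR-DN and 919, 1093 and 828 in EGFR-WT, and made up 30.5% to 55.2% of all tRNA counts. TrnQ (glutamine) had 416, 552 and 393 against 426, 652 and 301. Both lie on the opposite strand, as do 8 of the 22 tRNA genes, and these 8 held 60.6% of tRNA counts in EGFR-DN replicate 3 and 74.7% to 82.3% in the other libraries.

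Per base, the tRNA genes were far below the genes beside them. TrnQ reached 12.1% of the mean of ND1 and ND2, and TrnP 10.1% of CYTB, the nearest protein gene. TrnK (lysine), between COX2 and ATP8, was at 0.0317% of its neighbours. The genes TrnC, TrnE, TrnH, TrnL2, TrnN, TrnS2, TrnW and TrnY had 3 counts or fewer in at least 2 libraries, and these 8 were not tested with all 6 libraries. TrnL2 (leucine) had 9, 7 and 12 counts in EGFR-DN and 2, 3 and 5 in EGFR-WT, groups that did not overlap but that rest on very few reads.

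**Figure D5:**
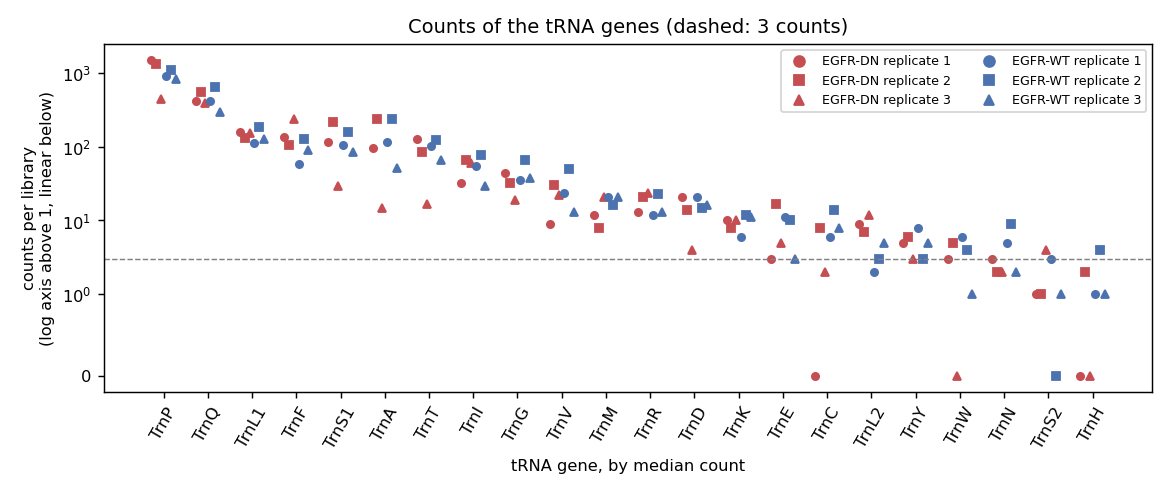
Counts of each tRNA gene in each library, ordered by median count (axis logarithmic above 1 and linear below; dashed line at 3 counts). TrnP and TrnQ lead, and 8 genes have 3 counts or fewer in at least 2 libraries.

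Among tested tRNA genes, TrnF (phenylalanine) had the largest log2 fold change, 1.11 (edgeR adjusted p = 0.69, SE 0.57). It was at 4.03, 3.01 and 12.1 CPM in EGFR-DN and 1.84, 3.38 and 3.59 CPM in EGFR-WT. Replicate 3 was far above the rest, as it was for the adjoining mt-Rnr1, and without it the value was 0.25 (SE 0.33). TrnP was at 43.8, 38.5 and 23.0 CPM against 29.2, 29.1 and 32.7 CPM. EGFR-DN replicates 1 and 2 were above and replicate 3 below every EGFR-WT library, the mirror image of CYTB, and its log2 fold change was 0.21 (SE 0.24) with all libraries and 0.44 (SE 0.09) without replicate 3. TrnA (alanine), which lies between ND2 and COX1, was at 2.83, 6.89 and 0.761 against 3.75, 6.48 and 2.01 CPM. Its log2 fold change was −0.21 (SE 0.75), and 0.24 without replicate 3. It varied as much within each group as between them, with replicate 2 of either group highest. The log2 fold changes of the other tested tRNA genes lay between −0.47 for TrnG (glycine) and 0.50 for TrnR (arginine), which were at −0.42 and −0.05 without replicate 3.

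The nuclear genes that copy, transcribe, process and translate the mitochondrial genome showed no called change. Of 85 tested in 6 lists, 0 passed in either direction by edgeR (0 also at an unadjusted p under 0.05, against 6.69% of all genes). Of these genes, 34 lay above 0 and 51 below, with a median of −0.07, beside 0.01 over all genes. The median moved to −0.02 when EGFR-DN replicate 3 was left out, and again 0 passed. By DESeq2 0 passed with all libraries and 1 without replicate 3.

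Transcription and nucleoid genes had a median of −0.22 over 12 genes, with 10 below 0, and −0.12 without replicate 3. Tfam, which packages mitochondrial DNA and starts its transcription, was at 51.2, 50.3 and 32.1 CPM in EGFR-DN and 52.9, 52.2 and 59.7 CPM in EGFR-WT (log2 fold change −0.30, SE 0.21, and −0.12 without replicate 3). The elongation factor gene Tefm was at 25.0, 24.7 and 12.5 against 29.8, 28.8 and 26.3 CPM (−0.45, SE 0.27, and −0.19 without replicate 3). For both, all EGFR-DN libraries lay below all EGFR-WT libraries, narrowly so except for replicate 3. The polymerase gene Polrmt (−0.03, SE 0.14, and −0.11 without replicate 3) and the termination factor gene Mterf1a (−0.58, SE 0.33, and −0.35) overlapped.

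Replication genes had a median of −0.06 over 6 genes, with the helicase gene Twnk at −0.32 (SE 0.17) and the polymerase gene Polg at 0.27 (SE 0.15), or −0.19 and 0.34 without replicate 3. RNA cleavage and modification genes had a median of −0.10 over 18. Trmt10c, a subunit of the RNase P that cuts the 5′ ends of mitochondrial tRNAs, was at −0.27 (SE 0.18) and at −0.12 without replicate 3. Nsun3, which methylates the mitochondrial methionine tRNA, was at 0.56 (SE 0.25) and at 0.24 without replicate 3. RNA stability genes had a median of −0.07 over 14. The partners Lrpprc and Slirp, which bind and stabilise mitochondrial messengers, were at −0.09 (SE 0.19) and −0.24 (SE 0.26), or 0.04 and 0.00 without replicate 3. The RNA-granule protein gene Grsf1 was at −0.34 (SE 0.20) and at −0.16 without replicate 3. Tbrg4, a FASTK family gene, was at 0.63 (SE 0.35) and at 0.13 without replicate 3.

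Translation factors (13 genes) and mitochondrial tRNA ligases (22 genes) were centred near 0, with medians of −0.01 and 0.00. The recycling factor gene Mrrf was at −0.25 (SE 0.16) and the initiation factor gene Mtif2 at −0.31 (SE 0.23), or −0.18 and −0.10 without replicate 3. Among the ligases, the alanine ligase gene Aars2 was at 14.7, 15.1 and 14.9 CPM in EGFR-DN and 11.3, 12.2 and 12.4 CPM in EGFR-WT (0.31, SE 0.15, edgeR adjusted p = 0.69; 0.31 without replicate 3). The tyrosine ligase gene Yars2 was at 33.3, 29.9 and 24.5 against 37.9, 36.9 and 35.2 CPM (−0.33, SE 0.16, and −0.22 without replicate 3). Groups did not overlap for either gene, in opposite directions. Across all 85 genes the groups did not overlap for 12, against 17.9% of all genes. Among the 6 nuclear rRNA-like genes, none was called either, and the 2 with the smallest p, Gm53756 and Gm46178, were at 7650 and 7750 CPM in replicate 3 and at no more than 1080 and 1430 CPM in the other libraries.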

How the data were processed

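RNA-seq libraries of sorted marrow cells were made from 10 ng of RNA by oligo(dT)-primed SMART-Seq v4 and Nextera XT and read as 75-base single reads, per the labels' protocols. The deposited values are estimated counts for each gene symbol with no scaling (79.4% of values whole, 0 columns of other samples). Build mm39, R 4.3.1, DESeq2 1.40.2 and DRAGEN are listed in the submitters' processing notes. What each did, the annotation and the use of strand are not stated there. References were of build GRCm38, so no coordinates are printed.

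Counts were rounded, filtered with filterByExpr, TMM-scaled and tested in R 4.3.3 with edgeR 4.0.16 (quasi-likelihood, two-sided), and p-values were adjusted by Benjamini and Hochberg's method over 19313 genes. Each SE is the absolute fold change on the log2 scale over the root of its F value. Alternatives used DESeq2 1.42.0 and limma 3.58.1. CPM are TMM-scaled, and shares and ratios use unrounded counts. Between any 2 libraries the chi-square per degree of freedom was at least 16.3, so no pair agreed within sampling noise. A floor of 3 counts is 0.0799 to 0.152 CPM and covers counting error only. On data simulated for this comparison over 19313 genes, 16% of genes changed 2-fold and 93% of genes changed 4-fold were recovered, with 1 false call. The simulation gave all genes the same dispersion and changed only genes above a minimum mean CPM. It held no library that stood apart as EGFR-DN replicate 3 did. These shares are therefore not the power to detect such changes in the members.

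All members were named. Of each list of nuclear machinery the 2 genes with the smallest unadjusted p were named, with Polrmt, Tfam, Tefm, Lrpprc and Slirp. Atp6-ps, Gm10222, the other nuclear copies and the analysis by length were chosen after values were seen. Members and lists were chosen with earlier results of these data known.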

Additional observations from a re-analysis of the deposited data

How the results depend on the processing

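No mitochondrial gene passed the threshold under any setting except the DESeq2 test without EGFR-DN replicate 3, which called 2 mitochondrial genes (CYTB, −0.29, adjusted p = 0.00988; TrnP, 0.44, adjusted p = 0.00585) and 1 machinery gene. Over all genes, 135 were called by DESeq2, 884 by DESeq2 without that library, 0 by limma-voom, and 0 to 57 when 1 library was left out, the 57 without EGFR-DN replicate 3 and 0 without any EGFR-WT library. Log2 group ratios with 1 library left out ranged from −0.26 to 0.98 for the rRNA share, from −0.14 to 1.37 for rRNA per protein count, from −0.56 to −0.02 for mt-Rnr2 to mt-Rnr1, from −0.41 to −0.06 for ND6 to ND5 and from −0.35 to 0.15 for COX1 to ND1. The lowest values of the first pair were without EGFR-DN replicate 3. The cause was not tested. With 1 library left out, single genes whose estimate changed sign ranged as follows: mt-Rnr1 −0.24 to 1.85, mt-Rnr2 −0.25 to 1.07, ND2 −0.18 to 0.35, ATP6 −0.10 to 0.15, ND4L −0.22 to 0.30, ND4 −0.15 to 0.36, ND5 −0.01 to 0.92, ND6 −0.06 to 0.57, CYTB −0.30 to 0.09, TrnV −0.66 to 0.19, TrnL1 −0.13 to 0.43, TrnI −0.23 to 0.57, TrnQ −0.04 to 0.32, TrnM −1.13 to 0.10, TrnA −1.17 to 0.29, TrnS1 −0.58 to 0.39, TrnK −0.27 to 0.37 and TrnR −0.05 to 0.82. DESeq2 without EGFR-DN replicate 3 also turned mt-Rnr1 (−0.24), mt-Rnr2 (−0.25), TrnL1 (−0.13), TrnI (−0.23), TrnQ (−0.04), ND2 (−0.17), TrnA (0.25), TrnK (−0.27), ATP6 (−0.10), TrnR (−0.05), ND4L (−0.22), ND4 (−0.15), ND5 (−0.01) and ND6 (−0.06). Library size alone, which put the median of all genes at −0.1, turned TrnS1 (−0.03), TrnK (−0.05), ATP6 (−0.09) and ND4L (−0.03). Mitochondrial protein counts as library size, with that median at 0.1, turned CYTB (0.07). limma-voom turned TrnS1 (−0.11).

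Same-numbered libraries did not deviate together (correlations −0.02, 0.05 and 0.06), so the numbers were not taken to pair them. With the replicate number as a block, 0 mitochondrial genes and 1 gene in all passed, and TrnS1 alone of 29 changed sign (−0.17). Low counts limited the tests of tRNA genes, of which 14 had enough counts to be tested in all 6 libraries and 16 without EGFR-DN replicate 3. The filter depends on the size of the smaller group, which differs between these fits. The cause of the low counts was not tested.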
